A study of Mus musculus with 23 samples.

Results

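The strain-by-diet comparison asked whether the ovary of CAST/EiJ mice answered a high fat diet differently from the ovary of C57BL/6J mice. For each gene the diet effect is the log2 ratio of its level on 44% fat to its level on 10% fat, and the term compared here is the diet effect in CAST/EiJ minus the diet effect in C57BL/6J. A positive term means that the gene was more raised, or less lowered, by the 44% fat diet in CAST/EiJ. The groups compared held 15 of the 23 RNA-seq libraries of the series. All 23, with those of another strain, NZO/HlLtJ, entered the filter on low counts and the estimate of spread. That filter kept 20189 of 24716 listed genes. The term passed the threshold (adjusted p under 0.05 in edgeR's quasi-likelihood test) for 124 genes, which are the genes described here. A fit of the 15 libraries alone called 17 genes, 13 of them among the 124.

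All mice were wild-type females. The groups were C57BL/6J, the common laboratory strain, on 10% fat with fiber (3 libraries) or 44% fat with fiber (4 libraries), and CAST/EiJ, an inbred strain derived from wild Mus musculus castaneus, on the same diets (4 libraries each). High sugar was part of the 44% fat diet, feeding began at 6 weeks of age and ovaries were taken at 15 weeks. Whole-ovary polyA RNA was sequenced, the labels give no stage of the estrous cycle, and nothing in them ties libraries to individual mice, so the p-values reflect the spread among libraries, part of which may be technical.

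Lysosomes are the acidic compartments in which cells break down lipids, proteins and sugars taken up or recycled, and many of their genes carry a short E-box in the promoter that MiT family factors such as TFEB bind. In the ovary, macrophages surround follicles and corpora lutea and clear dying cells, and steroid-making theca and luteal cells draw cholesterol through lysosomes and mitochondria. In RNA from whole tissue, fewer cells of a type and less RNA per cell cannot be told apart.

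Library totals were 32.8 to 45.9 M estimated counts. Several libraries stood apart in the scores of marker lists, where a score is the median over a list's genes of log2 CPM (a gene's counts scaled to a common library size) relative to the median library. Oviduct epithelium, the lining of the tube beside the ovary, had its highest score, 6.37, in replicate 2 of CAST/EiJ on 10% fat. Replicate 1 of C57BL/6J on 44% fat followed at 4.97, so the 2 libraries lie on opposite diets in the 2 strains. White adipocyte markers scored 6.39 in the first of these and 2.84 in the second, with 3.99 and 3.18 in replicates 1 and 2 of CAST/EiJ on 44% fat. Granulosa markers scored 0.60 in C57BL/6J 10% fat replicate 2 against -0.55 and -0.53 in the other libraries of its group. Granulosa, theca, luteal and oocyte markers were above 0 CPM in every library, so the labelled tissue was present throughout. The term of the oviduct list itself had a median of -8.52, with 0 of 10 genes positive, 9 at an unadjusted p under 0.05 and 0 past the threshold in edgeR. The median was -4.07 for 10 white adipocyte markers (3 at that level) and -3.38 for 3 neutrophil markers (3 at that level). In a fit without both of these oviduct-rich libraries the medians were -1.49, 0.59 and -2.49, and that fit ended the calls of 33 of the 52 named genes that could be tested in it.

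The diet effects of the 2 strains ran in opposite directions in all 124 genes, and in 114 of them the effect was upward in CAST/EiJ and downward in C57BL/6J. The 114 genes with a positive term were 0.565% of the genes tested and the 10 with a negative term were 0.0495%, together 0.614%. Of all genes tested, 12112 (60%) had fitted effects of opposite sign, and since the term is the difference of these 2 effects, a large term and opposite signs are not independent. Among the 124, the diet effect had an unadjusted p under 0.05 in each strain for 79 genes (356, or 1.76%, of all genes tested had opposite effects past that level in each strain). For 41 genes that level was passed in CAST/EiJ alone and for 4 in C57BL/6J alone, and 0 had effects of the same sign. The median diet effect of the 114 genes was 0.69 in CAST/EiJ and -0.37 in C57BL/6J on the log2 scale, and their terms ran from 0.40 to 6.12 with a median of 1.17. The median term over all genes tested was -0.04.

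Tested within one strain, the diet effect passed the threshold in edgeR for 126 genes (0.624%) in CAST/EiJ and for 0 genes (0%) in C57BL/6J, where 1783 had an unadjusted p under 0.05. DESeq2 called 65 genes in C57BL/6J, and limma called 832 with library weights and 0 on the authors' variance-stabilised values. Of the 124 genes, 65 were among the 126 called in CAST/EiJ. Because 0 passed in C57BL/6J with edgeR, the opposite sign there is given as a value throughout and only the difference between strains is called. Libraries of the diets did not overlap in CAST/EiJ for 108 of the 124 genes and in C57BL/6J for 64, against 5.88% and 8.08% of all genes tested, from the same libraries that gave the term. For 52 genes they overlapped in neither strain, 50 of them upward in CAST/EiJ and downward in C57BL/6J. Over all genes tested, 121 (0.599%) had libraries apart in both strains in that direction and 15 (0.0743%) in the reverse direction.

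**Figure D1:**
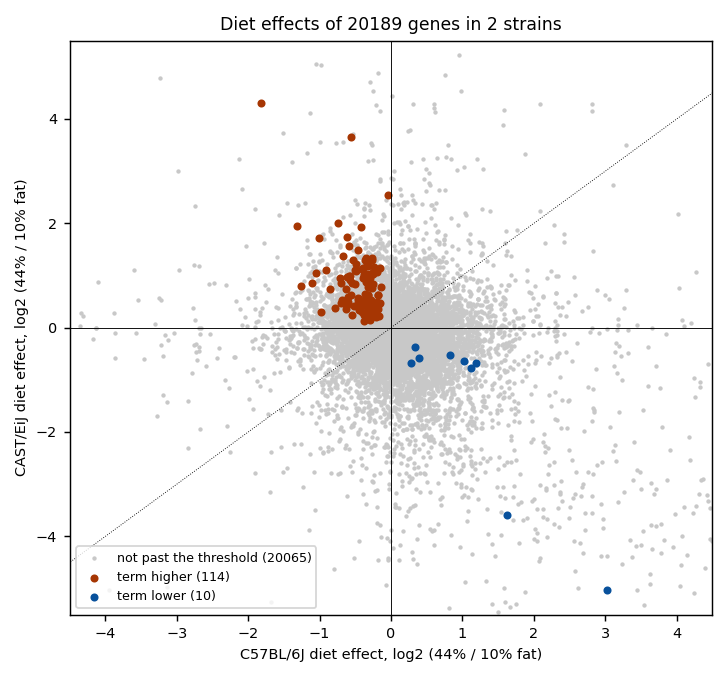
Diet effect of each tested gene in C57BL/6J (horizontal axis) and CAST/EiJ (vertical axis), both as log2 of 44% over 10% fat, with genes past the interaction threshold in colour and equal effects on the dotted line. The 114 genes with a positive term lie at upper left and the 10 with a negative term at lower right, and 77 genes, 1 of them past the threshold (Alox12e), fall outside the axes.

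Across the 20189 genes the 2 diet effects had a Pearson correlation of -0.34 and a Spearman correlation of -0.24, given as a description because genes are not independent samples and share their libraries. The value rested in part on the oviduct-rich libraries. Without both of them the Pearson correlation was -0.08 and the Spearman correlation -0.19, and without CAST/EiJ 10% fat replicate 2 alone they were -0.04 and -0.19.

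Since all 114 genes had an upward effect in CAST/EiJ and a downward one in C57BL/6J, their lowest group could only be CAST/EiJ on 10% fat or C57BL/6J on 44% fat. It was the former for 91 genes and the latter for 23, against 5271 and 4242 of the 20189 genes tested. The highest group was C57BL/6J on 10% fat for 74 and CAST/EiJ on 44% fat for 40, against 5317 and 3987. In all, 104 of the 114 stood lower in CAST/EiJ than in C57BL/6J on 10% fat, against 39 on 44% fat. The median strain difference was -0.87 log2 units on 10% fat and 0.17 on 44% fat, and the gap was smaller on 44% fat for 85 genes (11886 of all genes tested). These strain differences come from the same libraries as the term and are given as a description.

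Of the gene lists examined, the lysosome list had the most members past the threshold. Of 18 lysosome genes on the list, 7 passed with a positive term and 0 with a negative one (against 0.565% and 0.0495% of all genes), and 17 of 18 terms were positive (45.9% of all genes tested), with a median of 0.71. The 7 were Lipa, Ctsz, Hexa, Lamp1, Ctsd, Psap and Grn. The median diet effect over the 18 was 0.44 in CAST/EiJ and -0.28 in C57BL/6J. The lysosome score of every CAST/EiJ library lay between -0.22 and -0.11 on 10% fat and between 0.14 and 0.41 on 44% fat, without overlap. In C57BL/6J it lay between 0.25 and 0.50 on 10% fat and between -0.08 and 0.17 on 44% fat, in the reverse order and also without overlap.

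Lipa, at chr19:34492318-34527474 on GRCm38, encodes the acid lipase that frees cholesterol and fatty acids from lipoprotein lipids. Its level was in C57BL/6J on 10% fat 166, 103 and 143 CPM, in C57BL/6J on 44% fat 68.5, 93.4, 88.8 and 105, in CAST/EiJ on 10% fat 95.5, 69.3, 98.9 and 91.9 and in CAST/EiJ on 44% fat 149.8, 169, 147 and 128. The CAST/EiJ diets did not overlap, whereas in C57BL/6J one 10% fat library fell below the highest 44% fat library. The term was 1.37 ± 0.215 (log2 ± SE, edgeR adjusted p = 0.0118), with a rise in CAST/EiJ (log2 0.74, adjusted p = 0.0219) and a C57BL/6J effect of -0.63 (adjusted p = 0.327).

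Ctsz, at chr2:174427493-174439039, encodes cathepsin Z, a carboxypeptidase of the lysosome. It stood in C57BL/6J on 10% fat 161, 141 and 148 CPM, in C57BL/6J on 44% fat 114, 124, 119.5 and 123, in CAST/EiJ on 10% fat 86.7, 76.9, 77.4 and 88.6 and in CAST/EiJ on 44% fat 118, 127, 108 and 110.0. Both strains had their diets apart, in opposite directions, and the 44% fat groups of the 2 strains overlapped. The term was 0.81 ± 0.135 (edgeR adjusted p = 0.0169).

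Ctsa, a cathepsin that also protects lysosomal galactosidase and neuraminidase, is not on the list and passed as well. At chr2:164832873-164841032, it stood in C57BL/6J on 10% fat 214, 178 and 195 CPM, in C57BL/6J on 44% fat 159, 154, 169.9 and 165, in CAST/EiJ on 10% fat 133, 131, 141 and 134 and in CAST/EiJ on 44% fat 182, 195, 203 and 164. Every 44% fat library was above every 10% fat library in CAST/EiJ and below in C57BL/6J, and the term was 0.73 ± 0.122 (edgeR adjusted p = 0.0169).

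Hexa, at chr9:59539667-59565105, encodes the alpha subunit of the hexosaminidase that degrades gangliosides. Its level was in C57BL/6J on 10% fat 139, 139 and 125 CPM, in C57BL/6J on 44% fat 109, 108, 116 and 118, in CAST/EiJ on 10% fat 89.1, 69.8, 94.1 and 95.4 and in CAST/EiJ on 44% fat 113, 124, 117 and 120.0. The 44% fat groups of the 2 strains overlapped and the 10% fat groups did not, for a term of 0.69 ± 0.121 (edgeR adjusted p = 0.0179).

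Lamp1, a main glycoprotein of the lysosomal membrane at chr8:13159135-13175338, had the smallest term of the 7, 0.54 ± 0.101 (edgeR adjusted p = 0.0249). It stood in C57BL/6J on 10% fat 577, 522 and 544 CPM, in C57BL/6J on 44% fat 483, 445, 513 and 487, in CAST/EiJ on 10% fat 343, 375, 349.6 and 354 and in CAST/EiJ on 44% fat 409.5, 493, 490.2 and 425. The diets were apart in each strain, in opposite directions.

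Ctsd encodes cathepsin D, the main aspartic protease of the lysosome, and rose in CAST/EiJ from 599 ± 54.3 to 1028 ± 221 CPM (SD, n = 4 each, edgeR adjusted p = 0.018), with a term of 1.09 ± 0.208 (edgeR adjusted p = 0.0257). Psap encodes the precursor of the saposins, cofactors of sphingolipid breakdown, and went from 968 ± 47.1 to 1738 ± 446 CPM in CAST/EiJ (edgeR adjusted p = 0.036). In C57BL/6J the Psap libraries were at 3437, 1641 and 2343 CPM on 10% fat and 1606, 1773, 2031 and 1548 on 44% fat, which overlapped. Grn, the precursor of granulins, had a term of 0.83 ± 0.164 (edgeR adjusted p = 0.0284) and its diets were apart in each strain.

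Further genes of lysosomal function passed, named here after their values were seen. Tpp1, a tripeptidyl peptidase, had libraries at 203, 191 and 188 CPM in C57BL/6J on 10% fat and 135, 162, 149 and 174 on 44% fat, and at 87.8, 70.9, 91.1 and 87.9 and 104, 117, 113 and 100.4 in CAST/EiJ. Arsb, the sulfatase that acts on dermatan sulfate, had a term of 1.10 ± 0.230 (edgeR adjusted p = 0.0365). Tcirg1, a subunit of the proton pump that acidifies the compartment, had a term of 0.70 ± 0.153 (edgeR adjusted p = 0.0421). In these genes the diets were apart in CAST/EiJ, and in C57BL/6J they were apart for Tpp1 and Tcirg1 and overlapped for Arsb.

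The promoters of these genes are shown because the E-box CACGTG in them can be read directly. RefSeq promoters on GRCm38.p6, from 250 bases before to 50 after a gene's start, were matched for 93 of the 114 genes with a positive term and 7 of the 10 with a negative term, and searched on both strands. The motif lay in 12 of 118 promoters of the former (10.2%), in 0 of 9 of the latter and in 9.21% of the 15959 promoters of tested genes, so its share among the members was near that of all. On the lysosome list 4 of 18 promoters held it (22.2%). The 7-letter form TCACGTG, which contains the E-box, lay in 9.32% of the promoters with a positive term and 5.38% of all. GAGGAAGT, a PU.1 motif of myeloid genes, lay in 6 of the 118 (5.08%), from 5 genes, and in 3.09% of all. CAAGGTCA, an NR5A1 motif of steroid-making cells, lay in 4 of the 118 (3.39%) and in 1.18% of all. These 4 promoters were those of Psap, P2rx4, Cd84 and AF251705, and counts this small carry little weight. A match is a description of these letters and not evidence of binding.

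Windows before a RefSeq start and outside the exons of GENCODE M21 are printed for 5 of the members, 5′ to 3′ on the gene's strand, with the E-box in capitals. The Lamp1 promoter held 4 E-boxes, at positions -61, -45, -28 and -15 from the RefSeq start. Its printed window (chr8:13159044-13159134, plus strand) ends where the gene begins in the authors' annotation and holds the first 2. The Slc36a1 promoter held 2, at -31 and -3, and its window holds the first. Such windows of Arhgap15 and Igfbp2 are not printed. The other windows, each with 1 E-box, were those of C1rl (chr6:124492911-124493028, plus strand), Slc36a1, a lysosomal amino acid exporter (chr11:55204253-55204339, plus strand), Sumf1 (chr6:108185584-108185650, minus strand) and Hebp1 (chr6:135168216-135168329, minus strand), whose window lies inside the gene as the authors' annotation bounds it.
Lamp1: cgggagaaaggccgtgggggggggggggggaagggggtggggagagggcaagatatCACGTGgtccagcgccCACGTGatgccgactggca
C1rl: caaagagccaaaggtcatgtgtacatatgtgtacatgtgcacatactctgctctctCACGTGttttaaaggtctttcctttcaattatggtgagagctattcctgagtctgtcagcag
Slc36a1: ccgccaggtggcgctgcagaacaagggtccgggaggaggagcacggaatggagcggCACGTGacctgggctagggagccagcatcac
Sumf1: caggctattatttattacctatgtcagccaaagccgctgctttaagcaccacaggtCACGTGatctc
Hebp1: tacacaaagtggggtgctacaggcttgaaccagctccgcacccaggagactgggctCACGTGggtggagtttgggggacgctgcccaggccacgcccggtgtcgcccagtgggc

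The number of lysosome genes past the threshold depended on the libraries used, while the median term lay between 0.58 and 0.79 in all 24 alternative fits. It was 1 without C57BL/6J 10% fat replicate 1 and in the fit of the 15 libraries alone, 3 without replicate 1 or 2 of C57BL/6J on 44% fat or without replicate 1 of CAST/EiJ on 10% fat, 5 without the 2 oviduct-rich libraries, 13 in DESeq2 and 15 in limma with library weights.

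**Figure D2:**
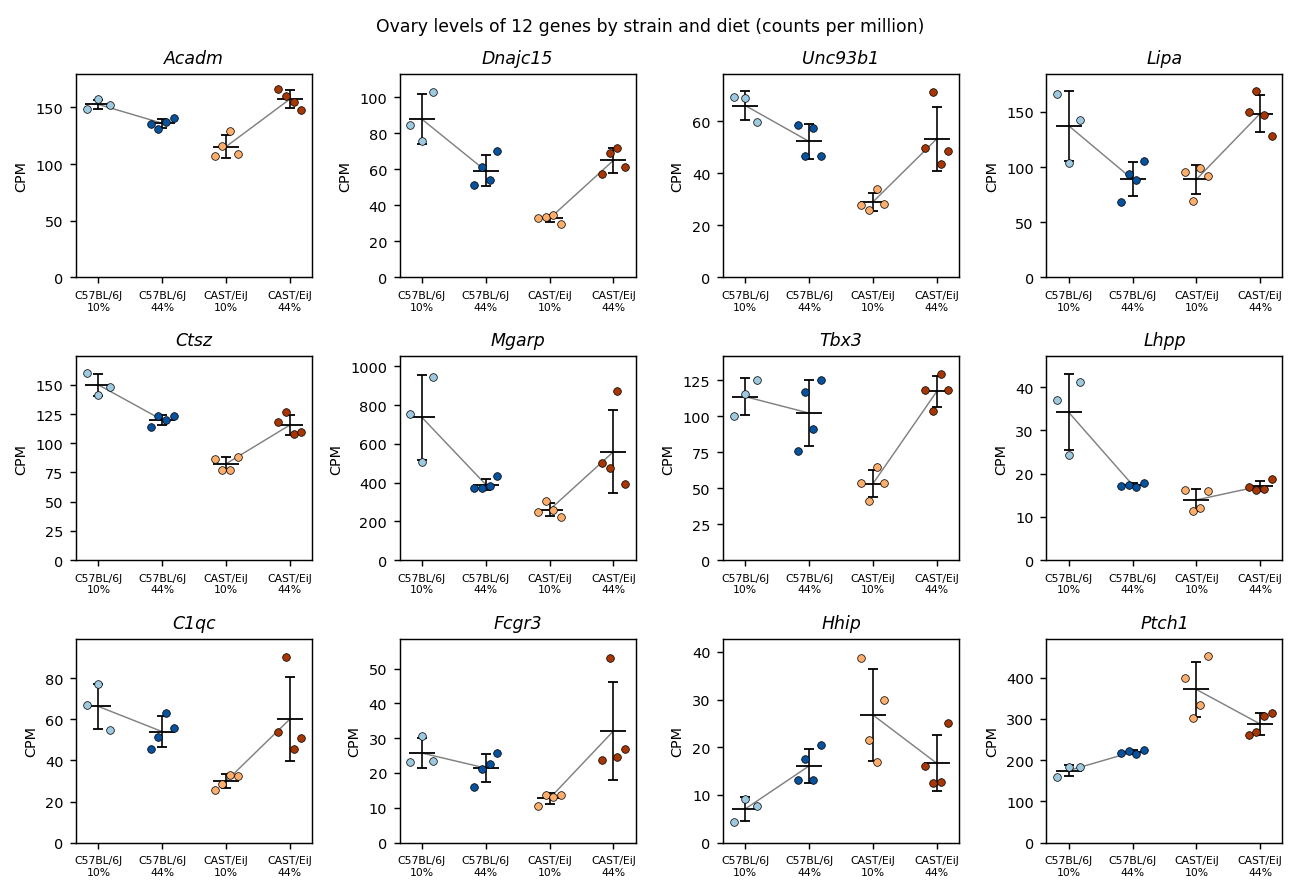
CPM of 12 genes in each library, grouped by strain and diet, with the group mean and SD as black bars and a grey line joining the diets of a strain. Acadm, Ctsz and Dnajc15 went up in CAST/EiJ and stood lower on 44% fat in C57BL/6J with all diets apart, and Hhip and Ptch1 stood higher on 44% fat in C57BL/6J, with overlapping diets in CAST/EiJ.

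Macrophage markers showed the same layout, with more weight on the CAST/EiJ side. Of 13 markers 4 passed with a positive term (C1qa, C1qb, C1qc and Adgre1) and 0 with a negative term, against 0.565% and 0.0495% of all genes. In all, 12 of 13 terms were positive (45.9% of all genes tested) and their median was 1.13. The median diet effect over the list was 0.75 in CAST/EiJ and -0.26 in C57BL/6J. Summed over the 13 markers, the level was 211 to 260.2 CPM in CAST/EiJ on 10% fat and 327 to 593 on 44% fat, and 379 to 535 and 322 to 413 in C57BL/6J. Markers of T and NK cells (0 of 14 past the threshold, median -0.43) and of B and plasma cells (0 of 7, median -0.64) had medians of the other sign in edgeR. With single libraries left out, the former ranged from -0.81 (CAST/EiJ 44% fat replicate 4) to -0.23 (C57BL/6J 10% fat replicate 3). The latter ranged from -0.78 (C57BL/6J 10% fat replicate 3) to -0.03 (CAST/EiJ 10% fat replicate 2), and was 0.05 without the 2 oviduct-rich libraries and 0.09 in limma with library weights.

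C1qc, which encodes a chain of C1q, the first complement component and a product of resident macrophages, stood in C57BL/6J on 10% fat 66.8, 77.1 and 55.1 CPM, in C57BL/6J on 44% fat 45.5, 51.5, 63.1 and 56.05, in CAST/EiJ on 10% fat 25.7, 28.5, 32.8 and 32.6 and in CAST/EiJ on 44% fat 54.01, 90.5, 45.5 and 50.8. The CAST/EiJ diets were apart and the C57BL/6J diets overlapped. The term was 1.31 ± 0.275 (edgeR adjusted p = 0.0376), and C1qb and C1qa, its neighbours on chromosome 4, had terms of 1.30 ± 0.282 (adjusted p = 0.0421) and 1.27 ± 0.291 (adjusted p = 0.0497). All 3 had their highest value in CAST/EiJ 44% fat replicate 2.

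Adgre1, which encodes the F4/80 antigen of mouse macrophages, stood in C57BL/6J on 10% fat 32.1, 72.7 and 25.2 CPM, in C57BL/6J on 44% fat 18.6, 23.6, 25.5 and 28.3, in CAST/EiJ on 10% fat 6.90, 7.12, 6.38 and 9.78 and in CAST/EiJ on 44% fat 14.5, 14.8, 11.5 and 9.82. Its highest library by far was C57BL/6J 10% fat replicate 2, and the term of 1.60 ± 0.358 (edgeR adjusted p = 0.0472) was 1.01 without that library.

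Other genes of myeloid cells were among the members. Unc93b1, the chaperone that carries Toll-like receptors to endosomes, stood in C57BL/6J on 10% fat 69.3, 69.03 and 59.5 CPM, in C57BL/6J on 44% fat 58.4, 46.5, 57.4 and 46.4, in CAST/EiJ on 10% fat 27.8, 25.8, 34.1 and 28.3 and in CAST/EiJ on 44% fat 49.8, 71.1, 43.4 and 48.6. The diets were apart in each strain and the term was 1.21 ± 0.190 (edgeR adjusted p = 0.0118). Fermt3, the integrin activator of blood cells also called kindlin-3, stood in C57BL/6J on 10% fat 9.95, 11.8 and 8.12 CPM, in C57BL/6J on 44% fat 6.67, 7.24, 9.10 and 7.97, in CAST/EiJ on 10% fat 3.64, 4.59, 4.25 and 5.12 and in CAST/EiJ on 44% fat 11.4, 14.5, 8.55 and 8.67. It rose in CAST/EiJ with no overlap (edgeR adjusted p = 0.0034), the C57BL/6J diets overlapped, and the term was 1.65 ± 0.260 (edgeR adjusted p = 0.0118). Arhgap30, a GTPase-activating protein, had a term of 1.25 ± 0.226 (edgeR adjusted p = 0.0195) and rose in CAST/EiJ from 6.78 ± 0.502 to 13.2 ± 2.82 CPM (SD, n = 4 each).

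Parts of Fc receptor and Toll-like receptor signalling passed too, named after their values were seen. Fcgr3, an immunoglobulin G receptor, stood in C57BL/6J on 10% fat 23.04, 30.7 and 23.5 CPM, in C57BL/6J on 44% fat 16.1, 21.2, 22.6 and 25.7, in CAST/EiJ on 10% fat 10.4, 13.6, 13.1 and 13.6 and in CAST/EiJ on 44% fat 23.7, 53.2, 24.5 and 26.9, and 53.2 CPM was the value of CAST/EiJ 44% fat replicate 2. The signalling chains Fcer1g and Tyrobp had terms of 1.40 ± 0.290 and 1.54 ± 0.343 (edgeR adjusted p = 0.0348 and 0.0448). Tlr8, an endosomal receptor for RNA, had a term of 1.71 ± 0.363 (edgeR adjusted p = 0.0376). Lyz2, the macrophage lysozyme, had a term of 2.35 ± 0.488 (edgeR adjusted p = 0.0371), which is uncertain because Lyz1 lies beside it with a near-identical sequence and reads can be split between them.

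The macrophage count moved with single libraries, with a median term of 0.91 to 1.34 over the 24 alternatives. It was 0 without CAST/EiJ 10% fat replicate 1, without C57BL/6J 10% fat replicate 1 or any 1 of the 4 C57BL/6J 44% fat libraries, without the 2 oviduct-rich libraries and in the fit of the 15 libraries alone, 1 without replicate 2 of either CAST/EiJ group, 2 without replicate 1 of CAST/EiJ on 44% fat, and 9 in DESeq2.

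Genes of mitochondria were among the members with the smallest p. Acadm encodes the dehydrogenase that starts the oxidation of medium-chain fatty acids. The gene, at chr3:153922357-153944632, stood in C57BL/6J on 10% fat 149, 157 and 152 CPM, in C57BL/6J on 44% fat 136, 131, 137 and 141, in CAST/EiJ on 10% fat 107, 116, 129 and 109 and in CAST/EiJ on 44% fat 167, 160.3, 155 and 148. The groups were narrow, the diets were apart in each strain in opposite directions, and the term was 0.61 ± 0.0940 (edgeR adjusted p = 0.0118). It passed in 24 of 24 alternative fits, where the highest edgeR adjusted p was 0.0473.

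Dnajc15, a co-chaperone of protein import in the mitochondrial inner membrane at chr14:77826217-77874917, stood in C57BL/6J on 10% fat 84.8, 75.6 and 103 CPM, in C57BL/6J on 44% fat 51.1, 61.3, 53.9 and 70.3, in CAST/EiJ on 10% fat 33.1, 33.3, 34.8 and 29.6 and in CAST/EiJ on 44% fat 57.3, 69.1, 72.02 and 61.2. Every diet pair was apart, and the term was 1.56 ± 0.242 (edgeR adjusted p = 0.0118). Mgarp, a mitochondrial protein abundant in steroid-making tissue and named after its values were seen, stood in C57BL/6J on 10% fat 755, 508 and 948 CPM, in C57BL/6J on 44% fat 374, 369.6, 380.0 and 436, in CAST/EiJ on 10% fat 249, 306, 257 and 224 and in CAST/EiJ on 44% fat 499, 475, 872 and 390.5. Its diets were apart in each strain, with a term of 2.03 ± 0.353 (edgeR adjusted p = 0.0179).

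Fatty acid oxidation as a list had 1 of 20 genes past the threshold (Acadm), and 19 of 20 terms were positive with a median of 0.25. The count was 4 in DESeq2, 5 in limma with library weights and 4 without C57BL/6J 10% fat replicate 2. Values of the next genes by p were 0.56 for Eci1, the enoyl-CoA isomerase (edgeR adjusted p = 0.0521), 0.42 for Etfa, a subunit of the electron transfer flavoprotein (0.0835), and 0.39 for Acadvl, the very-long-chain dehydrogenase (0.0874). Of 18 oxidative phosphorylation genes 0 passed in edgeR (5 at an unadjusted p under 0.05, 2 in DESeq2 and 4 in limma with library weights), and 18 of 18 terms were positive with a median of 0.20.

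Leading members outside these groups included enzymes of lipid metabolism. Cyp4f14, an omega-hydroxylase of fatty acids and leukotrienes in a cluster of related Cyp4f genes, stood in C57BL/6J on 10% fat 16.4, 8.66 and 17.9 CPM, in C57BL/6J on 44% fat 5.56, 7.38, 6.39 and 9.07, in CAST/EiJ on 10% fat 1.64, 1.39, 2.28 and 1.58 and in CAST/EiJ on 44% fat 4.55, 4.97, 9.03 and 4.32. It rose in CAST/EiJ with diets apart (edgeR adjusted p = 0.0156), and the term was 2.74 ± 0.435 (edgeR adjusted p = 0.0118). Tmem86a, a lysoplasmalogenase, stood in C57BL/6J on 10% fat 539, 399 and 482 CPM, in C57BL/6J on 44% fat 462, 345, 335 and 433, in CAST/EiJ on 10% fat 113, 90.9, 141 and 142 and in CAST/EiJ on 44% fat 310.1, 253, 395 and 230.0. Its CAST/EiJ libraries were below those of C57BL/6J on 10% fat and overlapped them on 44% fat, with a term of 1.56 ± 0.265 (edgeR adjusted p = 0.0179).

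C1rl, a protease related to complement C1r, stood in C57BL/6J on 10% fat 42.1, 19.2 and 45.7 CPM, in C57BL/6J on 44% fat 17.2, 15.1, 15.5 and 18.4, in CAST/EiJ on 10% fat 11.8, 7.82, 13.6 and 13.01 and in CAST/EiJ on 44% fat 17.9, 20.9, 26.8 and 18.6. The 10% fat libraries of C57BL/6J ranged widely but all lay above those on 44% fat, and the term was 1.97 ± 0.336 (edgeR adjusted p = 0.0179). Tbx3, a T-box transcription factor, stood in C57BL/6J on 10% fat 100.2, 115 and 125 CPM, in C57BL/6J on 44% fat 75.8, 117, 90.9 and 125, in CAST/EiJ on 10% fat 53.9, 41.1, 64.4 and 53.2 and in CAST/EiJ on 44% fat 118, 103, 129 and 118. It rose in CAST/EiJ (edgeR adjusted p = 0.0034) while the C57BL/6J diets overlapped, for a term of 1.30 ± 0.226 (edgeR adjusted p = 0.0179).

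The largest positive term belonged to Abcb1b, a P-glycoprotein drug and lipid exporter with the close relative Abcb1a beside it, named after its values were seen. It stood in C57BL/6J on 10% fat 1684, 97.3 and 1419 CPM, in C57BL/6J on 44% fat 261, 354, 252 and 346, in CAST/EiJ on 10% fat 7.93, 11.6, 7.82 and 3.39 and in CAST/EiJ on 44% fat 155, 38.6, 341 and 71.8. The CAST/EiJ diets were apart, C57BL/6J 10% fat replicate 2 fell far below the other libraries of its group, and the term was 6.12 ± 1.12 (edgeR adjusted p = 0.0233), or 5.34 without CAST/EiJ 44% fat replicate 3.

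Igfbp2, a binding protein of insulin-like growth factors, was the single gene of 18 on the insulin and IGF list to pass. It stood in C57BL/6J on 10% fat 68.9, 43.8 and 66.8 CPM, in C57BL/6J on 44% fat 28.8, 23.7, 32.3 and 30.5, in CAST/EiJ on 10% fat 57.01, 48.9, 93.4 and 54.1 and in CAST/EiJ on 44% fat 112, 178, 123 and 109. The diets were apart in opposite directions in the 2 strains, and the term was 2.10 ± 0.479 (edgeR adjusted p = 0.0497). The call held in 6 of 24 alternatives. On that list 3 genes were higher and 1 lower without C57BL/6J 10% fat replicate 2, and 3 higher and 2 lower in limma with library weights.

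In 4 genes the diet effect had an unadjusted p under 0.05 in C57BL/6J alone. Lhpp, a phosphatase of histidine and lysine phosphates at chr7:132610638-132706420, stood in C57BL/6J on 10% fat 37.2, 24.3 and 41.1 CPM, in C57BL/6J on 44% fat 17.3, 17.3, 16.98 and 17.9, in CAST/EiJ on 10% fat 16.2, 11.3, 12.1 and 16.1 and in CAST/EiJ on 44% fat 16.8, 16.3, 16.5 and 18.9. C57BL/6J on 10% fat stood above all other groups, which lay within a narrow range, and the term was 1.27 ± 0.221 (edgeR adjusted p = 0.0179) with diet effects of -0.98 in C57BL/6J (adjusted p = 0.118) and 0.30 in CAST/EiJ (adjusted p = 0.406).

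Hebp1, a heme-binding protein, stood in C57BL/6J on 10% fat 12.5, 11.3 and 12.2 CPM, in C57BL/6J on 44% fat 6.97, 8.14, 8.63 and 9.12, in CAST/EiJ on 10% fat 17.03, 16.3, 18.8 and 15.7 and in CAST/EiJ on 44% fat 18.4, 24.8, 18.03 and 18.5. Here CAST/EiJ was above C57BL/6J on both diets, and the term was 0.78 ± 0.173 (edgeR adjusted p = 0.0441). Sumf1, the enzyme that activates sulfatases such as Arsb in the endoplasmic reticulum, stood in C57BL/6J on 10% fat 65.96, 55.8 and 61.4 CPM, in C57BL/6J on 44% fat 44.4, 46.9, 47.2 and 49.9, in CAST/EiJ on 10% fat 38.4, 36.4, 35.2 and 38.3 and in CAST/EiJ on 44% fat 42.3, 40.4, 39.8 and 39.4. The diets were apart in both strains and the term was 0.50 ± 0.115 (edgeR adjusted p = 0.0497). Cercam, named for cell adhesion in brain endothelium, had a term of 1.17 ± 0.268 (edgeR adjusted p = 0.0491), with C57BL/6J 10% fat at 60.1, 26.4 and 48.4 CPM and 44% fat at 24.5, 28.1, 21.8 and 29.4, which overlapped. The last 3 calls held in 8 of 24, 4 of 24 and 6 of 24 alternatives.

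The 10 genes with a negative term had a median diet effect of 1.07 in C57BL/6J and -0.68 in CAST/EiJ. C57BL/6J on 10% fat was their lowest group in 7 and CAST/EiJ on 10% fat the highest in 8. Without the 2 oviduct-rich libraries 1 of them, Ptch1, passed (edgeR adjusted p = 0.0481). Hedgehog signalling was represented by 2 of the 10. In the ovary, granulosa cells make Hedgehog ligands and theca and interstitial cells respond by expressing the receptor Ptch1, the decoy receptor Hhip and the factor Gli1.

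Hhip, at chr8:79966115-80058006, stood in C57BL/6J on 10% fat 4.24, 9.17 and 7.77 CPM, in C57BL/6J on 44% fat 13.1, 17.6, 13.2 and 20.5, in CAST/EiJ on 10% fat 38.7, 21.4, 16.98 and 30.01 and in CAST/EiJ on 44% fat 16.1, 12.6, 12.8 and 25.1. The C57BL/6J diets were apart, the CAST/EiJ diets overlapped, and the term was -1.87 ± 0.390 (edgeR adjusted p = 0.0361). Ptch1, at chr13:63508328-63573598, stood in C57BL/6J on 10% fat 159, 182 and 183 CPM, in C57BL/6J on 44% fat 218, 223, 214 and 224, in CAST/EiJ on 10% fat 399, 302, 333 and 452 and in CAST/EiJ on 44% fat 261, 267, 308 and 315. All CAST/EiJ libraries were above all C57BL/6J libraries, and the strains were closer on 44% fat, for a term of -0.70 ± 0.158 (edgeR adjusted p = 0.0472). Gli1 did not pass, with a term of -0.79 ± 0.342 (edgeR adjusted p = 0.255) and overlapping diets in each strain. The call of Hhip held in 10 of 24 alternatives and that of Ptch1 in 9 of 24.

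On the list of 10 theca and interstitial markers, Hhip and Ptch1 were the 2 past the threshold, both negative, and 4 terms were positive. The list median was -0.44, and it was -0.004 in limma on the authors' variance-stabilised values. Aldh1a1, a retinaldehyde dehydrogenase, had a term of 1.12 ± 0.465 (edgeR adjusted p = 0.24), or 0.45 without C57BL/6J 10% fat replicate 2.

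Hook1, a linker of endosomes to microtubules, fell in CAST/EiJ with diets apart (edgeR adjusted p = 0.0219). It stood in C57BL/6J on 10% fat 13.6, 16.9 and 17.3 CPM, in C57BL/6J on 44% fat 17.3, 20.9, 17.8 and 21.6, in CAST/EiJ on 10% fat 26.2, 28.9, 21.2 and 24.1 and in CAST/EiJ on 44% fat 15.7, 12.8, 15.6 and 18.7, and the term was -0.96 ± 0.196 (edgeR adjusted p = 0.0327). Il15ra, the receptor chain that presents interleukin 15, stood in C57BL/6J on 10% fat 7.42, 7.21 and 5.06 CPM, in C57BL/6J on 44% fat 12.6, 11.4, 12.3 and 10.4, in CAST/EiJ on 10% fat 3.26, 5.57, 2.66 and 2.79 and in CAST/EiJ on 44% fat 2.58, 2.53, 2.27 and 2.55. Both strains had their diets apart, in opposite directions, and the term was -1.35 ± 0.294 (edgeR adjusted p = 0.0421). The value of 5.57 CPM was that of CAST/EiJ 10% fat replicate 2, which held oviduct RNA. Without the 2 oviduct-rich libraries the Il15ra term was -1.01 (edgeR adjusted p = 0.0838).

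Marveld2, the tight junction protein tricellulin, had a term of -0.97 ± 0.212 (edgeR adjusted p = 0.0421), with CAST/EiJ libraries at 11.2, 9.21, 7.97 and 11.2 CPM on 10% fat and 6.35, 6.55, 6.76 and 6.82 on 44% fat. Rab11fip4, an effector of recycling endosomes, had a term of -1.67 ± 0.369 (edgeR adjusted p = 0.0441). Its C57BL/6J libraries were at 9.87, 10.3 and 10.6 CPM on 10% fat and 32.7, 13.1, 24.2 and 13.5 on 44% fat, and the highest of these was C57BL/6J 44% fat replicate 1, which held oviduct RNA. CAST/EiJ 10% fat replicate 2, the other such library, was the highest of its group at 46.6 CPM. Without these 2 libraries the term was -1.09 (edgeR adjusted p = 0.0838).

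The other 4 genes with a negative term were low in nearly all libraries. Slc28a3, a nucleoside transporter, reached 11.4 CPM in CAST/EiJ 10% fat replicate 2 and was under 1 CPM in the other 14 libraries. Slc39a4, a zinc importer, was highest in the same library, followed by 7.60 CPM in CAST/EiJ 10% fat replicate 3, and its highest C57BL/6J value was 4.33 CPM in 44% fat replicate 1. Alox12e, a lipoxygenase, was at 0 in all 3 C57BL/6J 10% fat libraries and at most 1.82 CPM in C57BL/6J on 44% fat, again in replicate 1. Nog, the BMP inhibitor noggin, was at 0.397, 0.221 and 0.312 CPM and 0.622, 0.761, 0.636 and 0.679 in C57BL/6J, and at 1.83, 1.41, 1.71 and 2.18 and 0.973, 1.43, 0.869 and 0.899 in CAST/EiJ, without such a peak. The oviduct scores of the libraries named were 6.37 (CAST/EiJ 10% fat replicate 2), 0.27 (CAST/EiJ 10% fat replicate 3) and 4.97 (C57BL/6J 44% fat replicate 1), and without the 2 oviduct-rich libraries the terms were -4.79 for Slc28a3, -3.42 for Slc39a4 and -2.02 for Nog (edgeR adjusted p = 0.0862, 0.108 and 0.0591), while Alox12e did not pass the count filter.

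**Figure D3:**
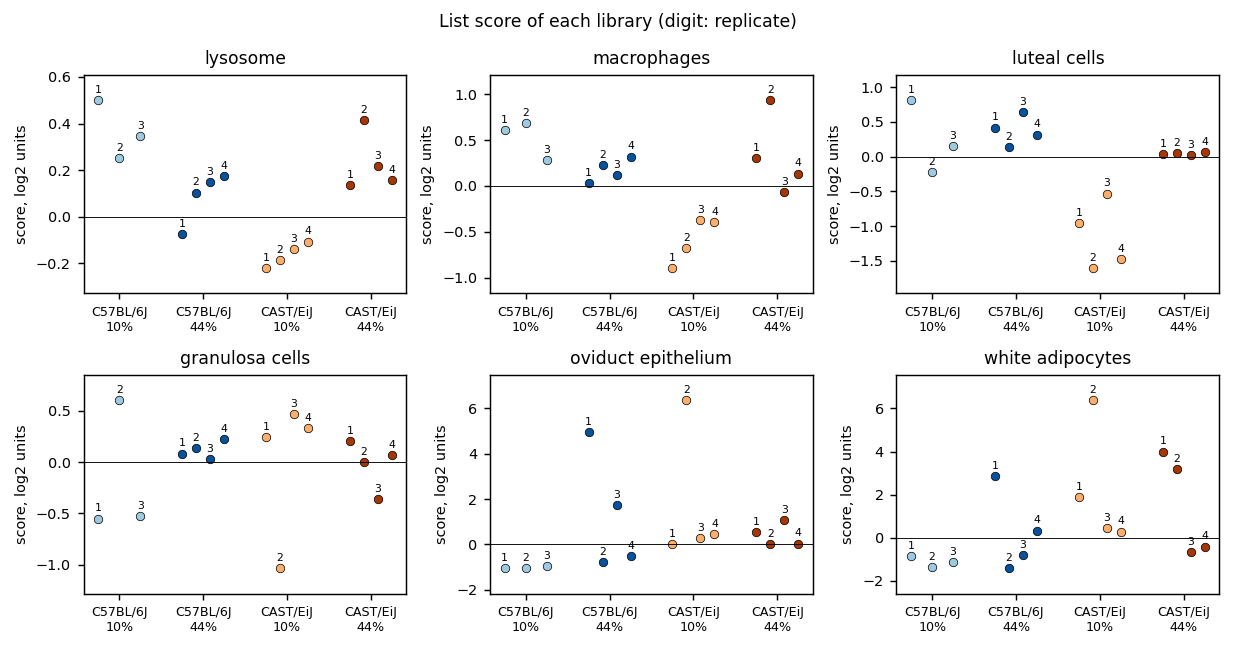
Score of 6 marker lists in each library, with the replicate number at each point. Lysosome and macrophage scores are lowest in CAST/EiJ on 10% fat, and oviduct and adipocyte scores reach 6.37 and 6.39 in replicate 2 of that group.

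Several lists of ovarian cell types leaned to one side without a gene past the threshold. The term had an unadjusted p under 0.05 for 3223 of all genes tested (16%), and was positive for 45.9%, which are the shares to read list counts against. Of 16 steroidogenesis genes 0 passed in edgeR (6 at an unadjusted p under 0.05), while DESeq2 and limma with library weights each called 5 as higher. In edgeR 11 terms were positive and the median was 0.65. Fdxr, the reductase that feeds electrons to the mitochondrial steroid enzymes, stood in C57BL/6J on 10% fat 507, 289 and 532 CPM, in C57BL/6J on 44% fat 338, 296, 344 and 275, in CAST/EiJ on 10% fat 157, 173, 168 and 164 and in CAST/EiJ on 44% fat 273, 227, 363 and 224, with a term of 1.22 ± 0.291 (edgeR adjusted p = 0.059). Cyp11a1, which makes pregnenolone from cholesterol, rose in CAST/EiJ (log2 1.35, edgeR adjusted p = 0.0219) and had a C57BL/6J effect of -0.06, for a term of 1.41 ± 0.388 that did not pass (adjusted p = 0.0835). Tspo, a cholesterol-binding protein of the outer mitochondrial membrane, had a term of 1.53 ± 0.434 (edgeR adjusted p = 0.0888), and Por, the electron donor of microsomal P450 enzymes, 0.70 ± 0.200 (0.0903).

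All 8 luteal markers had a positive term, with a median of 1.09, and 0 passed in edgeR (2 at an unadjusted p under 0.05) or in any alternative, DESeq2 and limma included. The luteal score was -1.61 to -0.53 in CAST/EiJ on 10% fat and 0.02 to 0.07 on 44% fat, and in C57BL/6J it was -0.22 to 0.82 and 0.14 to 0.64. Ptgfr, the prostaglandin receptor of luteal regression, stood in C57BL/6J on 10% fat 652, 87.1 and 224 CPM, in C57BL/6J on 44% fat 555, 380.3, 516 and 319, in CAST/EiJ on 10% fat 12.5, 14.3, 31.2 and 3.39 and in CAST/EiJ on 44% fat 206, 43.7, 138 and 55.6. Its term of 2.39 ± 1.06 (edgeR adjusted p = 0.272) came with wide groups and was 1.34 without C57BL/6J 10% fat replicate 1 and 3.0 without CAST/EiJ 10% fat replicate 3.

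Of 23 extracellular matrix genes 0 passed in edgeR (9 at an unadjusted p under 0.05, 5 in DESeq2 and 8 in limma with library weights), and all 23 terms were positive with a median of 0.42. The median was 0.20 without C57BL/6J 10% fat replicate 1 and 0.56 without C57BL/6J 10% fat replicate 2. Col1a1, a chain of collagen I, stood in C57BL/6J on 10% fat 1716, 568 and 974 CPM, in C57BL/6J on 44% fat 678, 824, 698 and 744, in CAST/EiJ on 10% fat 478, 407, 485 and 347 and in CAST/EiJ on 44% fat 823, 647, 679.6 and 626, with a term of 1.25 ± 0.333 (edgeR adjusted p = 0.0767). The C57BL/6J 10% fat libraries spanned the range of the 44% fat libraries and beyond. Mmp2, a gelatinase, had a term of 1.15 ± 0.331 (edgeR adjusted p = 0.0911).

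Granulosa and oocyte markers leaned to the other side. Of 14 granulosa markers 0 passed in edgeR (1 at an unadjusted p under 0.05, 0 in DESeq2 and 2 in limma with library weights), with a median of -0.25. That median was -0.98 without C57BL/6J 10% fat replicate 2 and -0.02 without C57BL/6J 10% fat replicate 1. Amh, the hormone of small growing follicles, stood in C57BL/6J on 10% fat 73.4, 129 and 111 CPM, in C57BL/6J on 44% fat 124, 131, 133 and 165, in CAST/EiJ on 10% fat 74.01, 28.8, 50.3 and 86.4 and in CAST/EiJ on 44% fat 29.3, 27.8, 54.9 and 41.9, with a term of -1.04 ± 0.411 (edgeR adjusted p = 0.215). Of 14 oocyte markers 0 passed in edgeR (1 at an unadjusted p under 0.05, 0 in DESeq2 and 1 in limma with library weights), 13 terms were negative and the median was -0.63, or -0.30 without C57BL/6J 10% fat replicate 1 and -0.93 without replicate 2 of that group. Zp2, a protein of the zona pellucida, had a term of -0.67 ± 0.372 (edgeR adjusted p = 0.387), and its C57BL/6J 10% fat libraries were at 22.2, 69.7 and 56.6 CPM.

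**Figure D4:**
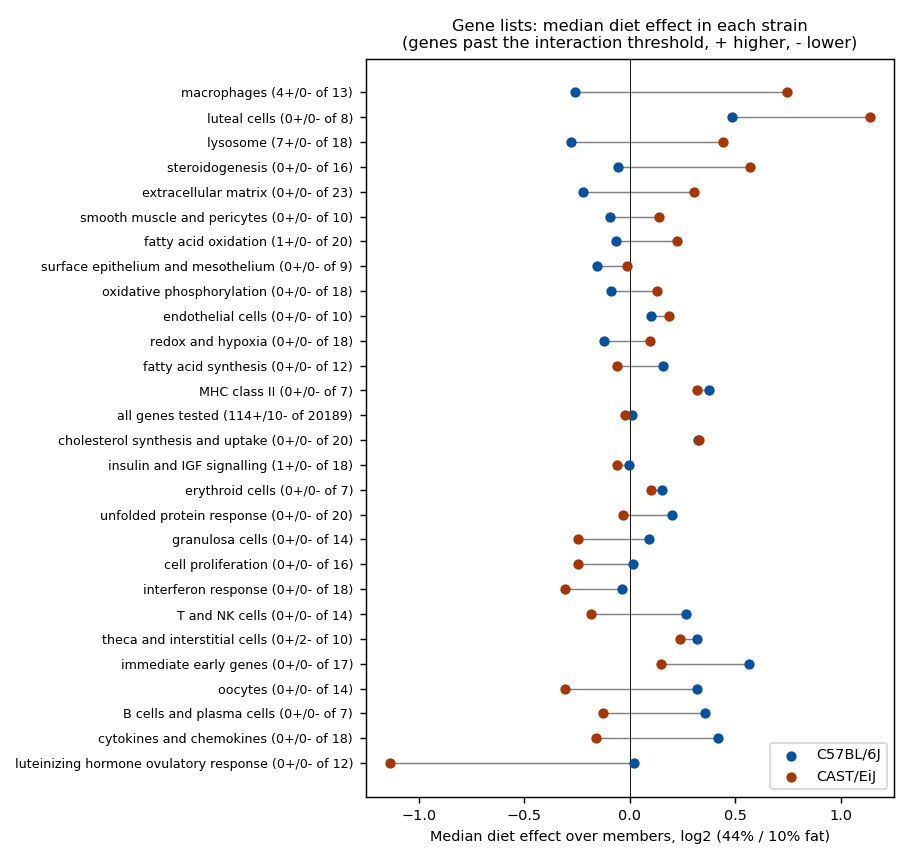
Median diet effect over the members of each gene list in C57BL/6J (blue) and CAST/EiJ (red), with the number of members past the interaction threshold in each direction. The 2 strains lie on opposite sides of 0 for the lysosome and macrophage lists. They do so as well for other lists, among them extracellular matrix, oocytes, granulosa cells, fatty acid oxidation and oxidative phosphorylation. Oviduct epithelium, white adipocytes and neutrophils are not drawn.

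NZO/HlLtJ, an obesity-prone strain of the same series with 4 libraries per diet, gave a further diet effect for the same genes. Its median over the 114 genes was -0.10, and 85 of the 114 were negative, against 10130 negative and 10018 positive effects over all genes tested. For the 10 genes with a negative term it was positive in 10. For diet in NZO/HlLtJ 0 genes (0%) passed in edgeR, 710 of the 20189 had an unadjusted p under 0.05 and DESeq2 called 4. Of the 114 genes 5 had an unadjusted p under 0.05 in NZO/HlLtJ, and of the 10 genes 1, so these signs are given as values. The effect in NZO/HlLtJ was -0.02 for Acadm, -0.32 for Dnajc15, -0.21 for Lipa, -0.13 for Ctsz and 0.07 for C1qc. The diet effects of NZO/HlLtJ and CAST/EiJ differed past the threshold for 3 genes (0.0149%), all of them among the 124. The same CAST/EiJ libraries enter that difference and the term, so such an overlap was likely beforehand and is no separate support. Those of NZO/HlLtJ and C57BL/6J differed for 0 genes in edgeR (0%), where 791 had an unadjusted p under 0.05 and DESeq2 called 5. Tbx3 was one of the 3, with effects of -0.25 in NZO/HlLtJ and 1.14 in CAST/EiJ (edgeR adjusted p of the difference = 0.0432).

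The library identifiers in the labels fall into series 76, 82 and 90, which may mark batches although no label says so. In series 76, with 1 library of each group, and in series 82, with 1 or 2, the term had the pooled sign for all 114 and all 10 genes. Over all genes tested this held for 76.1% in series 76 and 71.4% in series 82, and these values come from the libraries of the fit itself. Series 90 had no C57BL/6J library on 10% fat. With the series as a term in edgeR 49 genes passed, 47 of them among the 124.

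The count of 124 depended strongly on which libraries were used. It was 8 without C57BL/6J 10% fat replicate 1, 877 without replicate 2 and 62 without replicate 3 of that group. Without C57BL/6J 44% fat replicates 1, 2, 3 and 4 in turn it was 18, 19, 30 and 90. Without CAST/EiJ 10% fat replicates 1 to 4 it was 31, 127, 221 and 118, and without CAST/EiJ 44% fat replicates 1 to 4 it was 69, 57, 85 and 117. Without the 2 oviduct-rich libraries it was 30, of which 25 were among the 124. In each of these fits all of the 124 genes that could be tested kept the sign of their term. The 124 were chosen for large terms in libraries that these fits mostly share, so a kept sign was likely beforehand and is no separate support. The 8 genes that passed without C57BL/6J 10% fat replicate 1 included Acadm, Dnajc15, Unc93b1, Fermt3, Lipa, Cyp4f14 and Tbx3, with 0.0473 as the edgeR adjusted p of each. Of the 53 called genes named in the text, 46 lost their call without that library, 37 of 52 tested without C57BL/6J 44% fat replicate 1, and 0 without C57BL/6J 10% fat replicate 2. Without the 2 oviduct-rich libraries the 33 lost calls had edgeR adjusted p of 0.0529 to 0.108. Acadm, Dnajc15 and Fermt3 passed in all 24 alternatives.

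**Figure D5:**
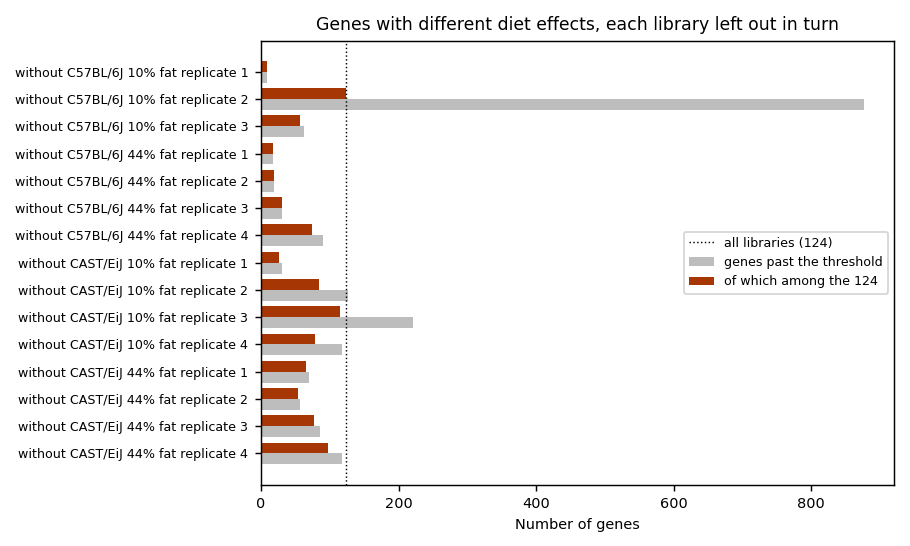
Number of genes past the interaction threshold when each of the 15 libraries is left out (grey bars) and how many of these are among the 124 genes (red bars), with the count of 124 as a dotted line. The count runs from 8 without C57BL/6J 10% fat replicate 1 to 877 without replicate 2 of the same group.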

How the data were processed

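Ovary polyA RNA was measured in 23 libraries, 15 of them of CAST/EiJ and C57BL/6J. The values used were the expected counts per gene that the authors deposited, of which 27.4% were not whole numbers, and the authors' deposited log2 variance-stabilised values served as an alternative. The submitters' processing notes name GRCm38 and DESeq2; the aligner, the counter and the release of the annotation were not given in the sources used here. Each of the 24716 listed genes was above 0 in at least 12 libraries, and the 21 within-group pairs all differed beyond counting noise, with a chi-square of 13.4 to 174 for each degree of freedom.

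Counts were rounded, filtered with edgeR's filterByExpr (minimum count 10, minimum total 15), scaled by trimmed mean of M values and modelled in edgeR by robust quasi-likelihood, with a mean for each of 6 groups over 23 libraries, so that all groups share 1 estimate of the spread. Adjusted p is Benjamini-Hochberg over the 20189 genes tested, and the threshold is 0.05. Standard errors were derived as the absolute log2 change over the root of the F value. CPM are computed from scaled libraries, and list scores use a prior count of 2. A factor that scales a gene alike in every library of a strain cancels in the term by construction. Whether mapping of CAST/EiJ reads to the reference genome acts in that way was not tested. On simulated counts of 19947 genes with 200 changed in this comparison, 45% of genes changed 2-fold and 61% of genes changed 4-fold were recovered, with 5 false among 111 calls.

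Gene positions are those of the authors' deposited annotation (GRCm38), and 24557 identifiers matched GENCODE M21. The software was edgeR 4.0.16 under R 4.3.3, with sva 3.50.0, DESeq2 1.42.0 and limma 3.58.1. Groups were taken from the titles, and replicates were numbered in deposit order, which pairs nothing. Alternatives were the 15 libraries alone, libraries left out, no count filter, relative log expression scaling, 2 surrogate variables, the identifier series as a term, DESeq2, and limma on the variance-stabilised values or with library weights. Named genes are up to 12 per direction with the smallest p (mean of at least 5 CPM in the highest of the 4 groups, no clone, predicted-gene or pseudogene names), up to 4 per class of diet effect and up to 4 with the smallest p per list described. The lists described and the genes said to be named after their values were seen were chosen from the results. Comparisons, members and the 30 gene lists (408 genes) were chosen with earlier results of these data known.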

Additional observations from a re-analysis of the deposited data

Results flagged for a closer look

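Among 267 groups of 4 libraries examined, 17 had a highest or lowest library far from the rest of its group; chance alone gives this in about 1 in 20 groups. CAST/EiJ 44% fat replicate 2 was the highest of its group for C1qa (89.4 CPM), C1qb (82.3), Fcgr3 (53.2), Laptm5 (73.7) and Hebp1 (24.8), all but Hebp1 genes of myeloid cells. CAST/EiJ 44% fat replicate 3 was the highest for Cyp4f14 (9.03 CPM) and Arsb (100.1) and the lowest for Il15ra (2.27). CAST/EiJ 10% fat replicate 2, which held more oviduct RNA than any other library, was the highest for Slc28a3 (11.4 CPM), Alox12e (0.951) and the oviduct score (6.37), and the lowest for Tpp1 (70.9 CPM) and the granulosa score (-1.04). In single groups, Fcer1g was highest in CAST/EiJ 10% fat replicate 4 (6.75 CPM), Mgarp in C57BL/6J 44% fat replicate 4 (436), Slc39a4 in C57BL/6J 44% fat replicate 1 (4.33) and Alox12e in CAST/EiJ 44% fat replicate 4 (0.0250).

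The strain-by-diet term, which is itself the test of the difference between strains, passed for 53 named genes. Its log2 values for lysosomal genes were 1.37 for Lipa, 0.73 for Ctsa, 0.81 for Ctsz, 0.69 for Hexa, 0.54 for Lamp1, 1.09 for Ctsd, 1.35 for Psap, 0.83 for Grn, 0.69 for Tpp1, 1.10 for Arsb, 0.70 for Tcirg1 and 0.63 for Slc36a1. For genes of macrophages and other myeloid cells they were 1.27 for C1qa, 1.30 for C1qb, 1.31 for C1qc, 1.60 for Adgre1, 1.21 for Unc93b1, 1.65 for Fermt3, 1.25 for Arhgap30, 1.61 for Fcgr3, 1.40 for Fcer1g, 1.54 for Tyrobp, 2.35 for Lyz2, 1.71 for Tlr8, 0.81 for Stab1, 2.16 for Pla2g7 and 1.51 for Laptm5. For mitochondrial and redox genes they were 0.61 for Acadm, 1.56 for Dnajc15, 2.03 for Mgarp, 0.61 for Prdx3, 0.98 for Glrx and 1.10 for Tst. For other genes with a positive term they were 2.74 for Cyp4f14, 1.56 for Tmem86a, 1.97 for C1rl, 1.27 for Lhpp, 1.30 for Tbx3, 0.78 for Hebp1, 1.17 for Cercam, 0.50 for Sumf1, 2.10 for Igfbp2 and 6.12 for Abcb1b. Negative terms were -0.96 for Hook1, -1.87 for Hhip, -1.35 for Il15ra, -0.97 for Marveld2, -1.67 for Rab11fip4, -0.70 for Ptch1, -8.05 for Slc28a3, -5.21 for Slc39a4, -1.89 for Nog and -12.36 for Alox12e. For Alox12e, at 0 in every C57BL/6J library on 10% fat, the fitted value depends on the prior count and is no measure of size.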

How the results depend on the processing

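All 124 genes kept the sign of their term in each of the 24 alternatives in which they were tested, and 0 terms of named genes past the threshold turned. A kept sign was likely beforehand, because the 124 were chosen for large terms in libraries that the alternatives mostly share. The counts moved more. The totals past the threshold, with higher terms, lower terms and genes opposite at an unadjusted p under 0.05 in each strain, were 124, 114, 10 and 79 in the report's fit. DESeq2 gave 859, 545, 314 and 384, limma with library weights 1341, 941, 400 and 634, and the 15 libraries alone 17, 17, 0 and 15. The identifier series as a term gave 49, 46, 3 and 37, and the fit without the 2 oviduct-rich libraries 30, 29, 1 and 22. With 2 surrogate variables the total was 75 with 63 higher, on the variance-stabilised values it was 81 with 5 lower and 51 opposite, and without a count filter 4 were lower. Leaving out each library in turn gave totals of 8 to 877, higher counts of 8 to 620, lower counts of 0 to 257 and opposite counts of 5 to 437. Higher terms made up 91.9% of calls in the report's fit, 63.5% in DESeq2, 70.2% in limma with library weights and 70.7% without C57BL/6J 10% fat replicate 2; the cause was not tested. Relative log expression scaling gave 133 calls, 124 of them shared. Groups of 3 or 4 limit the power: the simulated test recovered 45% of genes changed 2-fold. No paired analysis was possible because the labels give no replicate numbers.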

Other observations

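Members not described above, chosen after their values were seen, included further genes of macrophages. Stab1, a scavenger receptor, rose in CAST/EiJ from 85.8 ± 8.69 to 132 ± 9.45 CPM (SD, n = 4 each, edgeR adjusted p = 0.0159) and was at 177 ± 17.7 (n = 3) and 156 ± 15.6 (n = 4) in C57BL/6J. Pla2g7, the phospholipase that inactivates platelet-activating factor, rose from 10.6 ± 2.52 to 31.5 ± 15.96 CPM in CAST/EiJ (edgeR adjusted p = 0.011). Laptm5, a lysosomal membrane protein of blood cells, rose from 19.3 ± 3.90 to 43.97 ± 20.1 (edgeR adjusted p = 0.0197). The list of 18 redox and hypoxia genes had 0 past the threshold in edgeR (5 at an unadjusted p under 0.05), 10 positive terms and a median of 0.06. Outside it, Tst, a mitochondrial sulfur transferase, rose in CAST/EiJ (log2 0.85, edgeR adjusted p = 0.011), while Prdx3, the mitochondrial peroxiredoxin, and Glrx, a glutaredoxin, passed by their term (0.61 ± 0.130 and 0.98 ± 0.183, edgeR adjusted p = 0.0396 and 0.0238) and not by the CAST/EiJ diet effect alone (0.111 and 0.196).

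Other lists had no member past the threshold. Over 20 genes of cholesterol synthesis and uptake the median diet effect was 0.33 in CAST/EiJ and 0.32 in C57BL/6J, with a median term of -0.07 and 0 genes past the threshold in edgeR (3 at an unadjusted p under 0.05). Over 7 MHC class II genes the median diet effect was 0.32 and 0.38, with 0 past the threshold (0 at an unadjusted p under 0.05). Over 16 proliferation genes the term was positive in 0, with a median of -0.26 and 0 past the threshold (0 at an unadjusted p under 0.05). Over 20 genes of the unfolded protein response it was positive in 3, with a median of -0.24 and 0 past the threshold (4 at an unadjusted p under 0.05).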
